A study of Homo sapiens with 4 samples.

Results

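The mitochondrial respiratory chain is represented on these arrays by 189 probe sets of 82 genes, out of 49495 probe sets in the table and 18244 named genes. They were chosen by gene symbol alone, as the probe sets whose only annotated gene is an NDUFA, NDUFB, NDUFC, NDUFS or NDUFV subunit of complex I (74 probe sets, 35 genes), an SDH subunit of complex II (13 and 3), a UQCR subunit of complex III (18 and 8), a nuclear COX subunit of complex IV (31 and 17) or an ATP5 gene of complex V (53 and 19). Another 6 probe sets name such a gene together with a second gene and were not counted as members. Of the members, 2 probe sets, 1 of NDUFB4 and 1 of SDHD, carry exactly the values of another probe set of the same gene on all 4 arrays.

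Gene expression was measured in SeAx, a cell line derived from Sézary syndrome, a leukemic form of cutaneous T-cell lymphoma. The 2 control arrays hold RNA of cells labelled only as control, which the study describes as non-transduced, and the 2 miR-124 arrays hold RNA of cells given a lentiviral vector encoding miR-124 and selected in puromycin. Both conditions are the same line, so the selected cells differ from the controls by the vector and the drug as well as by miR-124, and these cannot be told apart. The study asked how ectopic miR-124 alters the transcriptional profile of these cells. The sources used here do not say if same-condition arrays were separate cultures, so every p below may measure technical spread.

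Each value is a log2 signal, and the 4 arrays had medians of 7.27 to 7.31. The mean of the 23 array background probe sets was 5.18 to 5.23, and a value near or under these gives no firm level. All 10 T-cell markers examined were above background on every array, from 5.33 for CD3E to 12.07 for CD3D, with CD3E, CD4, CD5 and CD28 close to the background. Of 13 markers of B cells, myeloid cells and keratinocytes, LYZ, FCGR3A, KRT1 and KRT14 were at or under background on all arrays, MS4A1 on 1 array, and 8 were above it, up to 11.01 for KRT10. The log2 of the summed signal was 13.43 and 13.49 in control and 13.52 and 13.56 in miR-124 arrays for the T-cell list, 10.30 and 10.41 against 10.19 and 10.14 for B cells, 10.76 and 10.67 against 10.93 and 10.53 for myeloid cells, and 11.08 and 10.60 against 10.89 and 10.49 for keratinocytes. The difference between the 3′ and 5′ probe sets of ACTB, a measure of RNA integrity and labelling, was 1.17 and 1.13 in control and 0.97 and 0.99 in miR-124 arrays, whereas that of GAPDH was -0.45 and -0.35 against -0.40 and -0.24. The part of these differences in the results below was not tested.

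The respiratory chain sits in the inner mitochondrial membrane. Complexes I and II take electrons from NADH and succinate and pass them through coenzyme Q to complex III, cytochrome c carries them on to complex IV, which reduces oxygen, and complex V uses the resulting proton gradient to make ATP. Most subunits are encoded in the nucleus and are the ones described here, while a few core subunits of complexes I, III, IV and V come from the mitochondrial genome and were not analysed here. The subunits are made in most cell types, and several of complex IV and V exist as isoforms from separate genes, some of them restricted to muscle, lung or testis.

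In the fit made here, no respiratory chain subunit passed the study's threshold between control and miR-124-transduced SeAx cells. The threshold was an unadjusted p under 0.05 with a fold change above 1.5. Of 189 member probe sets 0 passed it, against 91 (0.185%) of all 49293 probe sets tested with limma. On the brightest probe set of each gene, 28 of all 18244 genes passed it. The study reports many more genes past this threshold, so its list was not reproduced. The cause of this gap, and whether that list holds members, was not tested. No member reached an adjusted p under 0.05 (lowest 0.88), and neither did any other probe set. At an unadjusted p under 0.05 alone, 5 member probe sets were counted, or 2.65%, against 4.73% of all probe sets, with 3 higher (background 2.68%) and 2 lower (background 2.05%). The 3 higher ones are both identical probe sets of NDUFB4 and 1 of NDUFS7, and the 2 lower ones belong to NDUFS5 and UQCRB. After cyclic loess between the arrays the count was again 5, now with 2 higher and 3 lower. It was 1 without control replicate 1, 2 without control replicate 2, 13 without miR-124 replicate 1 and 1 without miR-124 replicate 2. NDUFS7 had an unadjusted p above 0.05 with any array left out (0.088 to 0.198 in limma). NDUFB4 was under 0.05 only without miR-124 replicate 1, NDUFS5 in all but the fit without control replicate 1 (0.0995), and UQCRB without control replicate 2 or miR-124 replicate 1.

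In miR-124-transduced cells 92 member probe sets were higher and 97 lower. Their median log2 fold change was -0.0086, with the middle part of the values between -0.07 and 0.09 (lower and upper quartile), beside a median of 0.0047 over all probe sets, with quartiles of -0.09 and 0.10. The most extreme members were a UQCRB probe set at -0.51 and the COX7A1 probe set at 0.33. The 95% confidence interval of the log2 fold change lay wholly inside a 1.5-fold change in either direction for 172 of 189 member probe sets (91.0%), beside 78.9% of all probe sets. A change of that size was thus outside the interval for most member probe sets. The median width of these intervals to either side was 0.25 for the members and 0.29 for all probe sets. Members were bright, with a median at the 88.61 percentile of all probe sets by mean level, and 179 of 189 were above background on every array.

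Counting separation in place of p, both miR-124 arrays lay above both controls for 40 member probe sets (background 18.8%) and below both for 35 (background 15.9%), together 39.7% of members beside 34.7% of all probe sets. On the brightest probe set of each gene, where each gene counts once, 20 of 82 genes were higher in this sense (background 18.7%) and 13 lower (background 15.5%). The gene-level fit gave 0 genes past the threshold (background 0.153%) and 3 with an unadjusted p under 0.05 (background 4.46%), namely NDUFB4, NDUFS7 and NDUFA11, all higher (background 2.7% higher and 1.76% lower). Among the 153 member probe sets at or above the median level of the array, 3 had an unadjusted p under 0.05 (background 6.36% of probe sets that bright) and 39.9% lay apart in either direction (background 36.9%).

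**Figure D1:**
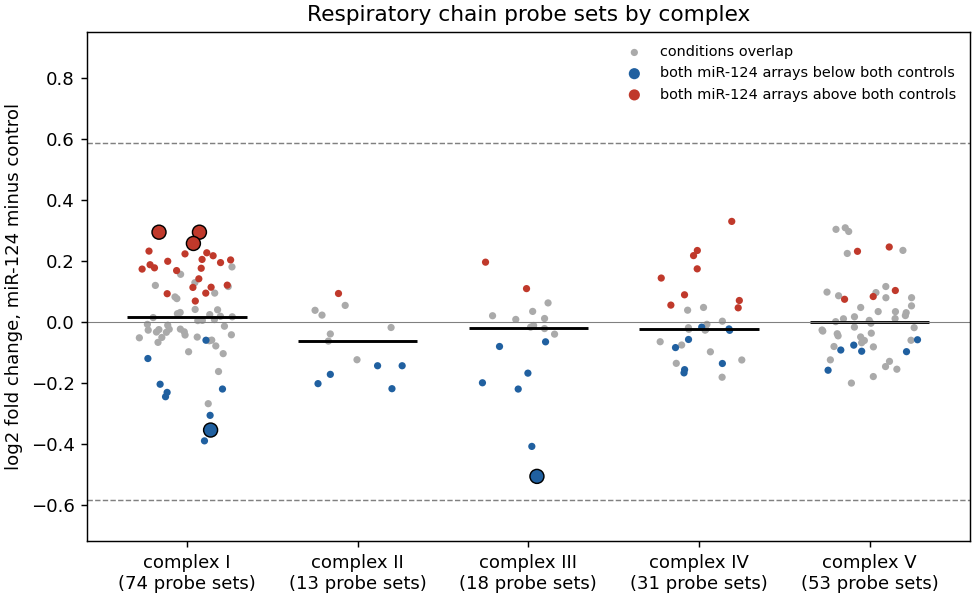
Log2 fold change (miR-124 minus control) of the 189 respiratory chain probe sets by complex, 1 point a probe set, with the median of each complex as a black line. Large outlined points have an unadjusted p under 0.05 in limma, colours show whether the arrays of the conditions overlap, and dashed lines mark a 1.5-fold change, which no point reaches.

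Complex I, the NADH dehydrogenase, held 4 of the 5 probe sets with an unadjusted p under 0.05, which is 5.41% of its 74 probe sets beside 4.73% of all probe sets, and 2 of the 4 are the identical pair of NDUFB4. Its probe sets had a median log2 fold change of 0.02, with 23 lying apart as higher and 9 as lower, together 43.2% beside 34.7% of all probe sets. By gene, 13 of 35 lay apart as higher and 4 as lower, together 48.6% beside 34.2% of all genes. The core subunits carry the flavin, the iron-sulfur clusters and the quinone site. Of the 6 core genes measured here 5 were higher, with a median of 0.12, beside 9450 of all 18244 genes. NDUFS1 was among the 5, by only 0.01. NDUFS3, NDUFS7 and NDUFV1 lay apart as higher (background 18.7% of all genes). Of the 29 accessory genes, which surround and stabilize the core, 18 were higher and 11 lower (median 0.04).

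NDUFB4, an accessory subunit of the membrane arm, gave 8.54 and 8.53 on the control arrays, and 8.77 and 8.88 after miR-124 transduction. Both miR-124 arrays were above both controls. The means were 8.83 ± 0.08 against 8.53 ± 0.01 (SD, n = 2 each), or 1.23-fold higher (log2 difference 0.29 ± 0.09 SE, limma unadjusted p = 0.025 and adjusted p = 0.88). The third NDUFB4 probe set was under background on all arrays. NDUFS7, a core subunit that holds an iron-sulfur cluster near the quinone site, was at 9.20 and 9.29 in control and at 9.50 in both miR-124 arrays. Its log2 fold change was 0.26 (95% interval 0.03 to 0.49, unadjusted p = 0.036 from limma), and its other 3 probe sets gave 0.19, 0.12 and -0.03. NDUFV1, the flavoprotein that accepts electrons from NADH, was at 11.47 and 11.53 against 11.57 and 11.72. NDUFS1, the largest core subunit, differed by 0.01 on its brightest probe set, at 10.85 and 10.80 against 10.82 and 10.86. Its other 4 probe sets all lay apart as lower, with log2 fold changes of -0.06 to -0.25, so the gene has no single direction on these arrays.

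Among the accessory subunits, NDUFA11 and NDUFB11 of the membrane arm were higher on every probe set with no overlap, at 0.22 and 0.18 for NDUFA11 and at 0.17 and 0.23 for NDUFB11. NDUFB10 was at 11.50 and 11.62 in control and at 11.75 and 11.81 in miR-124 arrays, and NDUFC1 at 9.82 and 9.97 against 10.15 and 10.10. Both lay apart with log2 fold changes of 0.22 and 0.23, and neither had an unadjusted p under 0.05. NDUFA13, also known as GRIM-19, an accessory subunit first described as a cell death gene that binds STAT3, lay apart as higher on its brightest probe set, at 12.92 and 12.95 against 13.08 and 13.17. Its 6 probe sets spanned -0.10 to 0.19, with 3 of them apart as higher and none as lower.

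On their brightest probe set 4 accessory genes lay apart as lower (background 15.5% of all genes). They were NDUFB3, NDUFB5, NDUFB6 and NDUFB8, all of the membrane arm. NDUFB3 gave -0.12 on its brightest probe set and 0.004 and 0.12 on its others, and the second NDUFB6 probe set overlapped between conditions. NDUFB8 had the largest difference of complex I, at 9.97 and 9.86 in control and 9.81 and 9.24 in miR-124 cells. The first miR-124 array lay just under the controls and the second well under them, so the log2 difference of -0.39 ± 0.21 SE (limma unadjusted p = 0.13) became -0.68 without miR-124 replicate 1, where it passed the threshold, and -0.11 without miR-124 replicate 2. NDUFB5 was at 11.44 and 11.20 against 11.17 and 10.85, a log2 fold change of -0.31 (unadjusted p = 0.11 from limma). Its other probe set gave -0.27 and overlapped between conditions. The value on the brightest was -0.47 without miR-124 replicate 1 and -0.15 without miR-124 replicate 2. It was -0.19 without control replicate 1 and -0.43 without control replicate 2. NDUFS5 had an unadjusted p under 0.05 only on a dim probe set, at 7.09 and 6.97 in control and 6.67 and 6.68 in miR-124 arrays. On that probe set the log2 difference was -0.36 ± 0.09 SE (limma unadjusted p = 0.014), and on the bright one it was -0.03. NDUFS5 is an accessory subunit on the intermembrane space side.

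**Figure D2:**
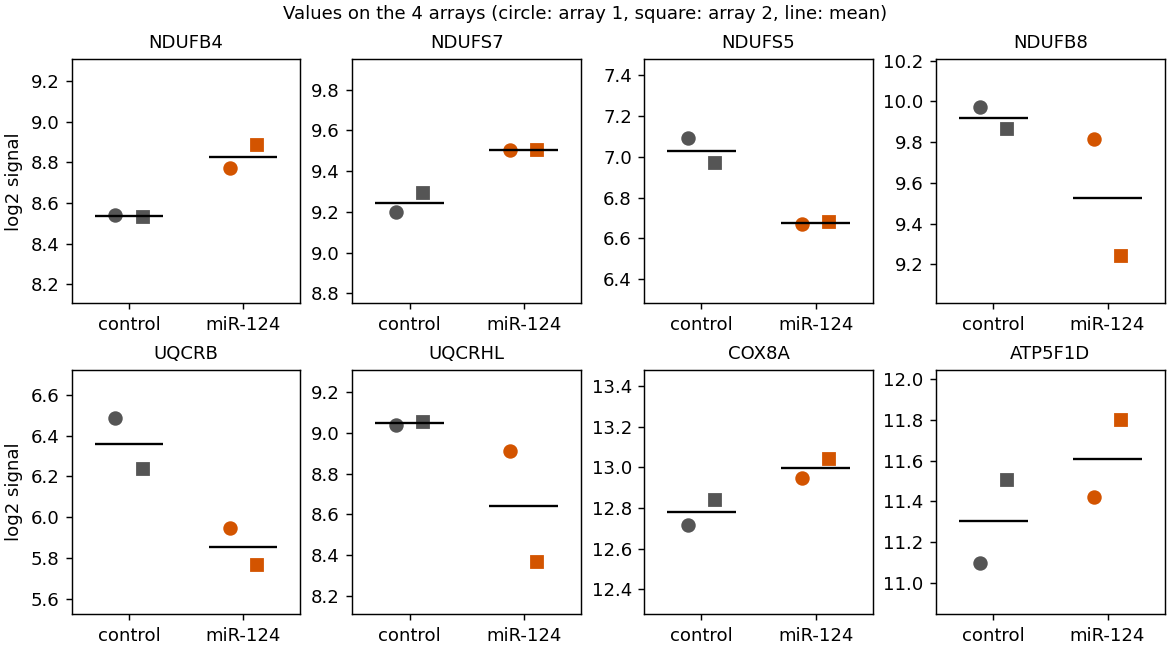
Log2 signal of 8 probe sets on the 4 arrays, with a circle for the arrays numbered 1, a square for those numbered 2 and a line at the mean of a condition. Every panel spans the same range of 1.2 on the log2 scale, and the miR-124 arrays of NDUFB8 and UQCRHL stand further apart from each other than the controls do.

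The promoters of respiratory chain genes are known to carry sites of NRF1, of ETS factors such as GABPA and of YY1, which link nuclear subunits to mitochondrial biogenesis. RefSeq start site windows of 300 bases on GRCh38.p14, from 250 before to 50 after the start, were matched by gene identifier for 67 of the 82 genes, as 80 windows. The NRF1 motif GCGCANGCG was found on either strand in 27.5% of member windows and in 7.52% of all 35116 windows. The ETS motif CCGGAAG was in 26.2% and 10.3%, and the YY1 motif AAGATGGCG in 11.2% and 1.75%. A match is a description of the letters and not a mapped site. Promoters are shown for NDUFB4 (chr3:120596086-120596385, plus strand) and NDUFS7 (chr19:1383657-1383956, plus strand), higher in miR-124 cells at an unadjusted p under 0.05 on their brightest probe sets. They are also shown for NDUFB8 (chr10:100529874-100530173, minus strand) and UQCRC2 (chr16:21953111-21953410, plus strand). These were lower with no overlap, NDUFB8 on its only probe set and UQCRC2 on each of its probe sets. The promoters are written 5′ to 3′ on the strand of the gene, with matches to any of the 3 motifs in capitals.
NDUFB4: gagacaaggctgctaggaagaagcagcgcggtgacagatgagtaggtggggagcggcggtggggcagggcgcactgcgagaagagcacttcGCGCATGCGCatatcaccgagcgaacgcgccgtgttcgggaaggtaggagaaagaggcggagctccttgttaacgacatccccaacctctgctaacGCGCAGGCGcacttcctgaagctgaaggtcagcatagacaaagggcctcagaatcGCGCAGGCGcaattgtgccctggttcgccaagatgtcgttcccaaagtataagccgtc
NDUFS7: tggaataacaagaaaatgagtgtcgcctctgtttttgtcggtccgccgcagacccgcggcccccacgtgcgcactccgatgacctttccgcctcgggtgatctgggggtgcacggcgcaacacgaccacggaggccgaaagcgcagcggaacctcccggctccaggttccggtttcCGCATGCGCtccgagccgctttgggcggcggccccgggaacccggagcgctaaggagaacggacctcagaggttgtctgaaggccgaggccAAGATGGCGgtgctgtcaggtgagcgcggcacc
NDUFB8: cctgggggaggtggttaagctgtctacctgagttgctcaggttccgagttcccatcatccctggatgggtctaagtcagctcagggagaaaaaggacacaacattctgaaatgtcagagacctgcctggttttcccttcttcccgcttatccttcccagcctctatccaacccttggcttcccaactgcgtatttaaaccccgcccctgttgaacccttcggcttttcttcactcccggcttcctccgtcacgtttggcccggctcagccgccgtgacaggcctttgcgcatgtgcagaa
UQCRC2: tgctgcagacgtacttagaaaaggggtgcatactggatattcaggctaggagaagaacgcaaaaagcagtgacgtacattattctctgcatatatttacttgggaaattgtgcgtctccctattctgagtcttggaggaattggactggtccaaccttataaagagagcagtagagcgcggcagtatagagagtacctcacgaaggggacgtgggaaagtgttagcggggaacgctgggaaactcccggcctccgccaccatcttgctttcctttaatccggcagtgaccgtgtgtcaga
NDUFB4 held 3 separate matches to the NRF1 motif, and NDUFS7 held 1 to it and 1 to the YY1 motif. The windows shown of NDUFB8 and UQCRC2 held none of the 3. These genes were picked after their values were seen. Whether motif content goes with the direction of the difference was not tested. NDUFB8 has a second listed window, which is not shown. The G and C content was 59.3% for NDUFB4, 66.0% for NDUFS7, 55.3% for NDUFB8 and 49.3% for UQCRC2. Across the 67 genes, which share the same arrays and are not independent, promoter G and C content and the log2 fold change had a Pearson correlation of 0.21 and a Spearman correlation of 0.22, beside 0.08 for both over 14488 genes. The Pearson correlation of G and C content with the difference between the array numbers was larger over the 67 genes, at 0.32. Over all 14488 genes it was smaller, at 0.03.

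Complex II, the succinate dehydrogenase, had a median log2 fold change of -0.06 over its 13 probe sets, with 9 lower and 4 higher and none at an unadjusted p under 0.05. SDHA, the flavoprotein that oxidizes succinate, was at 11.00 and 11.02 in control and 10.89 and 11.20 in miR-124 arrays, so the miR-124 arrays lay on either side of the controls. SDHC, a membrane anchor, was measured by 5 probe sets that did not share a direction, from -0.22 to 0.09. The lowest of them was at 10.29 and 10.39 against 10.09 and 10.15 (log2 difference -0.22 ± 0.09 SE, limma unadjusted p = 0.063). SDHD, the other anchor, was lower on all its probe sets, by up to 0.14, and overlapped on the brightest, at 9.82 and 9.96 against 9.84 and 9.69.

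Complex III, the cytochrome c reductase, had a median of -0.02 over 18 probe sets, of which 7 lay apart as lower (background 15.9%) and 2 as higher (background 18.8%). The core proteins UQCRC1 and UQCRC2 hold the assembly together on its matrix side. UQCRC1 was at 11.19 and 11.14 in control and 11.08 and 11.20 in miR-124 cells, and its 3 probe sets differed by -0.02 to -0.01. UQCRC2 was at 12.15 and 12.09 against 12.07 and 12.01 on its brightest probe set and at 10.57 and 10.36 against 10.33 and 10.25 on the other. It was the only gene with several probe sets of which every one lay apart as lower, and its differences were small, -0.08 and -0.17.

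UQCRB, a small subunit at the quinone-binding part of complex III, had the most extreme difference of all members. On a dim probe set it was at 6.49 and 6.24 in control and 5.95 and 5.76 in miR-124 arrays, a log2 difference of -0.51 ± 0.13 SE (limma unadjusted p = 0.014). It passed the fold threshold only without control replicate 2 (-0.63) or without miR-124 replicate 1 (-0.60). The brightest UQCRB probe set was at 11.85 and 11.83 against 11.81 and 11.74 (log2 fold change -0.07), and the 2 others differed by 0.01. UQCRHL, an intronless copy of the hinge protein gene UQCRH, was at 9.04 and 9.06 in control and at 8.91 and 8.37 in miR-124 arrays. Its log2 fold change of -0.41 (unadjusted p = 0.10 from limma) became -0.68 without miR-124 replicate 1, past the threshold, and -0.14 without miR-124 replicate 2. UQCRH itself was at 13.25 and 13.21 against 13.30 and 13.20, and since the sequences are near-identical, the probe set named for UQCRHL may also read UQCRH. UQCRQ, a small subunit of the membrane part, was lower on all 3 probe sets, with -0.04 on the brightest and -0.22 and -0.20 on 2 dim ones that lay apart. UQCR11, another small subunit, had the most positive difference of complex III, 0.20, on a probe set at 9.43 and 9.26 against 9.57 and 9.51 (limma unadjusted p = 0.12), and it was 0.11 without control replicate 2.

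Complex IV, the cytochrome c oxidase, had a median log2 fold change of -0.02 over 31 probe sets, and none had an unadjusted p under 0.05. By gene, 5 of 17 lay apart as higher (background 18.7%) and 4 as lower (background 15.5%). COX4I1, the broadly expressed form of the largest nuclear subunit, was at 13.11 and 13.10 in control and 13.08 and 13.09 in miR-124 arrays. This is a log2 fold change of -0.02 (95% interval -0.23 to 0.20), which turned to 0.0081 after cyclic loess. Its dim probe set had the most negative difference of complex IV above background, -0.18, at 7.18 and 6.90 against 6.73 and 6.99, with overlapping arrays, and this was -0.04 without control replicate 1, -0.05 without miR-124 replicate 1, -0.31 without miR-124 replicate 2 and -0.32 without control replicate 2. The third COX4I1 probe set lay apart as higher, at 13.01 and 13.02 against 13.06 and 13.07. COX8A, the smallest subunit, lay apart as higher on both probe sets, at 12.72 and 12.84 against 12.95 and 13.04 on the one and at 12.77 and 12.89 against 12.95 and 13.00 on the brighter (log2 fold changes 0.22 and 0.14). COX6B1, which faces the intermembrane space, was at 12.47 and 12.62 against 12.67 and 12.77. COX7A2L, which takes part in joining complexes III and IV, was at 11.59 and 11.50 in control and 11.42 and 11.33 in miR-124 cells, a log2 fold change of -0.17 (unadjusted p = 0.13 from limma).

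Several isoforms of complex IV subunits are known from other tissues. COX7B2 and COX8C, known from testis, were under background on all 4 arrays, at 4.15 to 4.35 and at 4.80 to 4.89. COX4I2, the lung form, lay at 6.09 to 6.15, COX6B2 at 6.59 to 6.74 and COX6A2, the heart and muscle form, at 7.67 to 7.84. COX7A1, the muscle form, was at 6.20 and 5.93 in control and 6.47 and 6.31 in miR-124 arrays, the largest positive difference of any member on the 4 arrays (log2 difference 0.33 ± 0.13 SE, limma unadjusted p = 0.060). Without control replicate 2 it was 0.19, smaller than the 0.29 of NDUFB4 without that array, and without control replicate 1 it was 0.47 (limma unadjusted p = 0.044). Of their broadly expressed counterparts, COX6A1 differed by -0.02, COX7A2 by -0.02 and COX7B by -0.03 on their brightest probe sets. COX7A2 lay apart as lower on 4 of 5 probe sets, by 0.14 or less, and as higher on its dim one. Levels of different probe sets were not compared with each other.

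Complex V, the ATP synthase, had a median of 0.0003 over 53 probe sets, and 20.8% of them lay apart in either direction, beside 34.7% of all probe sets. In the catalytic F1 part, ATP5F1A, the alpha subunit, was at 13.28 and 13.14 in control and 13.14 and 13.01 in miR-124 arrays (log2 fold change -0.13, 95% interval -0.40 to 0.14). ATP5F1B, the catalytic beta subunit, and ATP5F1C, the gamma subunit of the central stalk, were also lower on all probe sets, by 0.15 or less. ATP5F1D, the delta subunit of the central stalk, had the largest positive difference of complex V. It was at 11.10 and 11.51 in control and at 11.42 and 11.80 in miR-124 cells, so the arrays overlapped between conditions. The log2 difference was 0.31 ± 0.20 SE (limma unadjusted p = 0.19), with 0.30 on both other probe sets. It was 0.10 without control replicate 1, 0.12 without miR-124 replicate 2, 0.50 without miR-124 replicate 1 and 0.51 without control replicate 2. Within each array number it was higher by 0.33 and 0.29, while the arrays numbered 2 exceeded those numbered 1 by 0.39.

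The c ring, which turns as protons pass, is built from 1 protein encoded by 3 genes. ATP5MC1 was at 10.39 and 10.34 against 10.41 and 10.18, ATP5MC2 at 10.75 and 10.90 against 10.88 and 11.00, and ATP5MC3 at 12.90 and 12.86 against 12.79 and 12.77. ATP5MC3 lay apart as lower and the other two overlapped. The dim ATP5MC3 probe set, at 8.02 and 7.77 against 7.88 and 7.55, had the lowest log2 fold change of complex V above background, -0.18, which was -0.0117 without miR-124 replicate 2, -0.35 without miR-124 replicate 1, -0.06 without control replicate 1 and -0.30 without control replicate 2. The 4 peripheral stalk genes had differences of -0.04 to 0.10 and overlapped between conditions. ATP5IF1, the inhibitor of the synthase, was at 12.16 and 12.25 against 12.30 and 12.27 on its brightest probe set, a difference of 0.08. ATP5MJ, a small subunit of the membrane part, was higher on all 5 probe sets above background, by 0.05 to 0.25, of which 2 lay apart. ATP5MGL, a gene closely related to ATP5MG, was at 6.99 and 6.57 against 6.83 and 7.20, with overlapping arrays, while ATP5MG was lower on all 3 of its probe sets, by 0.16 or less.

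**Figure D3:**
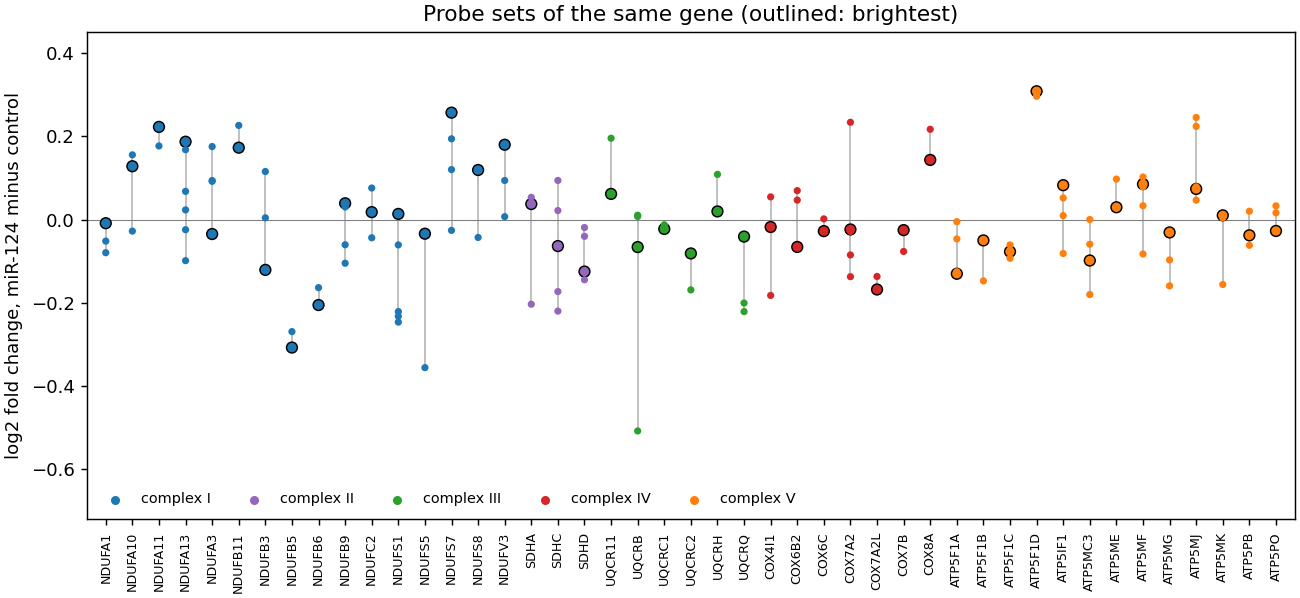
Log2 fold change (miR-124 minus control) of every probe set above background for the 45 member genes with several distinct ones, joined by a line for each gene, with the brightest probe set outlined. Of these genes 23 had all probe sets on the same side of 0, and UQCRB spans the widest range, from -0.51 to 0.01.

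Probe sets of the same gene often disagreed. For the 45 genes with at least 2 distinct probe sets above background, the distance between the highest and the lowest log2 fold change had a median of 0.13. Counting every probe set, all of a gene's probe sets had the same sign for 25 of 50 member genes, beside 45.9% of 11825 genes on the array. All lay apart as higher for NDUFA11, NDUFB11 and COX8A, or 6.0% beside 4.63% of those genes, and all lay apart as lower for UQCRC2, or 2.0% beside 2.63%.

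The difference between conditions was also taken within each array number. The miR-124 array was on the same side of its control in both numbers for 124 of 189 members (65.6%), beside 61.0% of all probe sets. By complex this share was 70.3% for complex I, 46.2% for complex II, 66.7% for complex III, 67.7% for complex IV and 62.3% for complex V. For complex I the median difference was 0.03 in the arrays numbered 1 and 0.02 in those numbered 2, and for complex II it was -0.11 and -0.07. The pairs do not share an array, and the correlation of the 2 differences across member probe sets was 0.51, beside 0.35 over all probe sets, as a description over probe sets that share arrays and genes.

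The array number itself divided the members less than it divided the whole array. Of the variance of the 4 arrays over the members, 42.5% lay between the conditions and 43.2% between the array numbers, with the rest along the remaining contrast, whereas over all probe sets the shares were 28.2% and 58.0%. Members were higher in the arrays numbered 2 for 92 probe sets and lower for 97. In complex II, 11 of 13 probe sets were higher in the arrays numbered 2, at a median of 0.09, beside 24898 of all 49293 probe sets. The 13 belong to 3 genes and include the identical pair of SDHD. NDUFV3, a small accessory subunit of complex I, was at 7.40 and 7.83 in control and 7.42 and 7.83 in miR-124 arrays on a dim probe set, a difference that follows the number and not the condition.

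**Figure D4:**
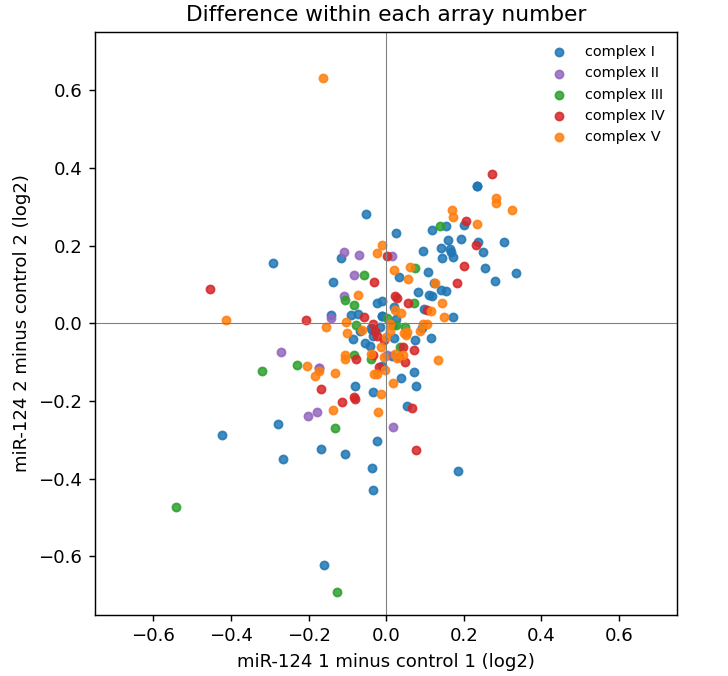
Difference between the miR-124 and the control array of each of the 189 member probe sets within the arrays numbered 1 (horizontal, log2) and within those numbered 2 (vertical, log2), coloured by complex. For 124 members both differences have the same sign, and NDUFB8 and UQCRHL lie lowest, at -0.62 and -0.69 in the arrays numbered 2.

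Other genes of oxidative metabolism were each counted on the brightest probe set. None of those measured passed the study's threshold or an adjusted p under 0.05. Of 45 assembly factors, 28 were higher and 17 lower (median log2 difference 0.05), and 3 had an unadjusted p under 0.05, beside 4.46% of all genes. ATPAF1, a chaperone that helps assemble the F1 part of complex V, was at 8.70 and 8.73 in control and 9.09 and 9.16 in miR-124 cells (log2 difference 0.41 ± 0.08 SE, limma unadjusted p = 0.0055 and adjusted p = 0.89). FOXRED1, an assembly factor of complex I, was at 8.21 and 8.34 against 8.53 and 8.53. LRPPRC, which stabilizes the messenger RNAs of the mitochondrial genome, was lower, at 12.04 and 11.97 against 11.80 and 11.75. Among 15 regulators of mitochondrial biogenesis, 11 were higher and 4 lower, and only PPRC1, a coactivator of the PGC-1 family, had an unadjusted p under 0.05, at 10.23 and 10.26 against 10.50 and 10.56. The 11 genes of the tricarboxylic acid cycle had a median of 0.02, with none at an unadjusted p under 0.05. The 8 electron carriers, other subunits and related genes had a median of 0.09, with 6 higher, 2 lower and none under 0.05. Among these, CYC1 is a complex III subunit whose symbol lies outside the member rule. It was at 12.10 and 12.07 in control and 12.23 and 12.28 in miR-124 arrays.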

How the data were processed

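RNA of 2 control and 2 miR-124-transduced SeAx samples was hybridized to Affymetrix PrimeView arrays. The log2 values were used as the authors deposited them, after RMA with background correction and quantile normalization. RMA and limma are named in the submitters' processing notes. One methods paragraph of the study names Agilent arrays for this comparison, whereas the labels and another paragraph name the Affymetrix kit. Quantile normalization makes every difference relative to the rest of the array.

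Of 49495 probe sets, 202 array controls were left out and 49293 were fitted in R 4.3.3 by limma 3.58.1 (functions lmFit and eBayes, condition as the only term, 2 residual degrees of freedom and 2.56 from the prior). The threshold was that of the study. Adjusted p-values are Benjamini-Hochberg over all probe sets, or over 18244 genes for the fit on the brightest probe set of each gene. A 95% interval uses the moderated standard error. Precision is limited by having 2 arrays per condition. Array numbers come from the sample titles. Probe sets were named through the platform annotation, and all 82 member genes matched a RefSeq record.

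The members, lists and tests were chosen with earlier results of these data known. A rule selected for naming the member probe sets past the threshold, the largest difference in each direction in each complex above background, 1 core subunit per complex and genes with isoforms. NDUFA4 and NDUFA4L2 were on that list and carry symbols outside the member rule here. The other members named were chosen after their values were seen. The fit was run on simulated data drawn from its own variance model, with no effect of array number. That run checks the code and cannot show how well the p-values hold for these arrays. Alternatives were an array number block, each array left out, a filter on low values, cyclic loess, a trend and robust prior, array weights, and averaging a gene's probe sets. When 1 array is dropped, the spread comes from the other condition, and the array left is taken to vary as much.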

Additional observations from a re-analysis of the deposited data

How the results depend on the processing

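The number of members past the threshold was 0 with the array number block, the filter, cyclic loess, the trend and robust prior and array weights. With each array left out in turn it was 0 to 3 probe sets and 0 to 2 genes, and the 3, of NDUFB8, UQCRB and UQCRHL, came without miR-124 replicate 1, where 2.19% of all probe sets passed. Without control replicate 2 it was 1, of UQCRB. Averaging a gene's probe sets gave 0 genes. With all 4 arrays kept, NDUFS7 had a limma unadjusted p of 0.054 with the filter and 0.058 after cyclic loess. It was 0.066 with the trend and robust prior, 0.040 with array weights and 0.027 with the array number block. NDUFB4 was at 0.0506 with the trend and robust prior and under 0.05 with the other 4-array settings. The count at an unadjusted p under 0.05 was 1 to 13 with an array left out and 2 of 153 probe sets with the filter. The array number is not known to pair the samples, though same-numbered arrays deviated together (r = 0.64 over all probe sets). With the replicate block the count was 24, or 12.7% beside 13.7% of all probe sets. Members whose unadjusted p in limma went from over to under 0.05 with the block included NDUFB5 (0.014), NDUFB8 (0.035), SDHC (0.040 on its lowest probe set), UQCRHL (0.047), COX7A1 (0.012) and ATP5F1D (0.012), each with the same log2 difference, and the lowest adjusted p of a member was 0.329. The median log2 fold change of the members ranged from -0.0128 to 0.0015 with an array left out and was 0.0018 with the filter. With an array left out, the values of UQCRC1 (-0.0805 to 0.0358), COX4I2 (-0.0476 to 0.0084), NDUFS1 (-0.0073 to 0.0347), COX7B (-0.0947 to 0.0443), SDHA (-0.1192 to 0.1941) and ATP5MC1 (-0.1811 to 0.0433) took either sign, and that of COX4I1 was 0.0081 after cyclic loess. The cause of these shifts was not tested.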
